A study of Mus musculus with 8 samples.

Results

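*Crtac1* and *Inmt* are 2 of the 38362 genes with a summed FPKM value in inguinal white adipose tissue (ING WAT) of C57BL/6j mice. They were chosen by the size of the difference in their level between weaning and young adulthood. The difference between the ages is given as a description without a test. The table lists 3 transcripts for them, 1 for *Crtac1* and 2 for *Inmt*, and all 3 are described.

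Poly(A)+ RNA of whole ING depots was sequenced from 8 mice, m1, m49, m138 and m145 killed at postnatal day 21 (PN21) and m35, m106, m114 and m125 killed at postnatal day 98 (PN98). The labels name no transgene or treatment, and the contrast asks what changes in subcutaneous fat between weaning and young adulthood. Dams and weaned pups received a synthetic diet, and older mice of the study then received either a maintenance diet or a western style diet. Which of these diets the PN98 mice here received, and the sex of the 8 mice, are not in the labels. The Y-linked gene *Ddx3y* lay between 18.1 and 25.9 FPKM in all 8 libraries and *Xist*, the RNA that silences the inactive X chromosome, at 0.247 to 0.832 FPKM at PN21 and at or below 0.00704 FPKM at PN98. The Y-linked genes *Eif2s3y*, *Kdm5d* and *Uty* were also present in all 8 libraries, and all of these Y-linked genes overlapped between the ages. All 8 libraries thus held Y-linked RNA, while the low level of *Xist* differed between the ages without overlap. The paper states that females were killed at PN21 and that males were weaned.

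*Crtac1* encodes cartilage acidic protein 1, a secreted calcium-binding glycoprotein with an EGF-like repeat that is made by cartilage, brain and lung and that acts as an antagonist of the Nogo receptor. *Inmt* encodes indolethylamine N-methyltransferase, a cytosolic enzyme known for its abundance in lung that transfers methyl groups from S-adenosylmethionine to tryptamine and related amines. Neither protein is a classical marker of fat. Inguinal fat is a mixture of adipocytes, progenitor cells, vessels, nerve and immune cells, it encloses a lymph node and it lies against muscle, so that a whole-depot library can hold RNA of each.

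*Crtac1* (ENSMUSG00000042401) lies on the minus strand of mm10 at chr19:42283035-42431783 and *Inmt* on the minus strand at chr6:55170626-55175043. The members share the difference between the ages on which they were chosen, and whether they share any control was not tested. The stretches just upstream of their annotated starts are shown as a description only. They are RefSeq promoter sequences (GRCm38.p6, read 5′ to 3′ on the gene's strand, ending before the first transcribed base), chr19:42431789-42432038 for *Crtac1* and chr6:55175044-55175240 for *Inmt*. Capitals mark each CCAAT (or its reverse complement ATTGG) and each TATAAA.
Crtac1: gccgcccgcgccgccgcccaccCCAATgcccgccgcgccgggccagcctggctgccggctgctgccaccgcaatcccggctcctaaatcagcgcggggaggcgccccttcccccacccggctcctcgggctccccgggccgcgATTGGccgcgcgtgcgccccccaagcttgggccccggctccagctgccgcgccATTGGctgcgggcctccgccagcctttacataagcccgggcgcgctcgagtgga
Inmt: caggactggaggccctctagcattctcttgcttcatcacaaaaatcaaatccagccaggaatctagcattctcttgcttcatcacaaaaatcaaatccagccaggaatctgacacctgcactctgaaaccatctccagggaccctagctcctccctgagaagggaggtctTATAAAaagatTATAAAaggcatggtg

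Of the *Crtac1* stretch, 77.6% of the bases were G or C, against a median of 52% over 27025 promoters and above 97.8% of them. It held CCAAT 3 times, 229, 108 and 55 bases upstream of the annotated start, and no TATAAA. The *Inmt* stretch was 45.7% G or C and held TATAAA 2 times, 22 and 11 bases upstream of the start, and no CCAAT. It also held a stretch of 49 bases (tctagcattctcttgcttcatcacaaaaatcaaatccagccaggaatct) 2 times, starting 182 and 136 bases before the start, with the ends of the copies overlapping. Searched on both strands over the 250 bases upstream of each RefSeq start, CCAAT occurred in 34.5% of the promoters and TATAAA in 13%. GGGCGG, found in 32.9%, occurred 2 times in *Crtac1*. AGGTCA (13.8%) and AGAACA (16.2%), which are half-sites of nuclear and steroid receptors, occurred in neither, and no match overlapped another. A match describes letters only, and these letters were not tested for any effect.

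FPKM is the number of sequenced fragments divided by the transcript length in kilobases and by the depth of the library in mapped fragments, so levels of different genes can be compared per length. *Crtac1* was close to absent at PN21 and moderately expressed at PN98. Its single transcript (ENSMUST00000048630, protein coding, 2618 bases) had 0.140 FPKM in m1, 0.0627 in m49, 0.0604 in m138 and 0.385 in m145. At PN98 it had 28.5 FPKM in m35, 12.4 in m106, 22.8 in m114 and 18.03 in m125. The lowest PN98 mouse (m106) stood 32.2 times above the highest PN21 mouse (m145), and the ages did not overlap.

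The mean of *Crtac1* at PN21 was 0.162 ± 0.153 FPKM (SD, n = 4), and at PN98 it was 20.4 ± 6.85 FPKM (n = 4), a ratio of 126. On the log2(FPKM + 1) scale the difference of PN98 minus PN21 was 4.16 with a standard error of 0.25. This scale compresses values below 1 FPKM, where all PN21 values of *Crtac1* lay. With a pseudocount of 0.1 in place of 1 the difference was 6.39, and without any pseudocount the transcript differed by 7.35 with a standard error of 0.62. The direction was the same on each scale, whereas its size on the log2 scale depended on the added constant.

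*Inmt* was low but measurable at PN21 and among the more abundant transcripts at PN98. Summed over both transcripts it had 1.798 FPKM in m1, 5.31 in m49, 2.55 in m138 and 7.75 in m145. At PN98 it had 90.4 FPKM in m35, 93.5 in m106, 46.1 in m114 and 80.3 in m125. The lowest PN98 mouse (m114) stood 5.94 times above the highest PN21 mouse (m145), again without overlap. The mean at PN21 was 4.35 ± 2.72 FPKM (SD, n = 4), and at PN98 it was 77.6 ± 21.7 FPKM (n = 4), a ratio of 17.8. The log2(FPKM + 1) difference was 3.97 with a standard error of 0.40.

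**Figure D1:**
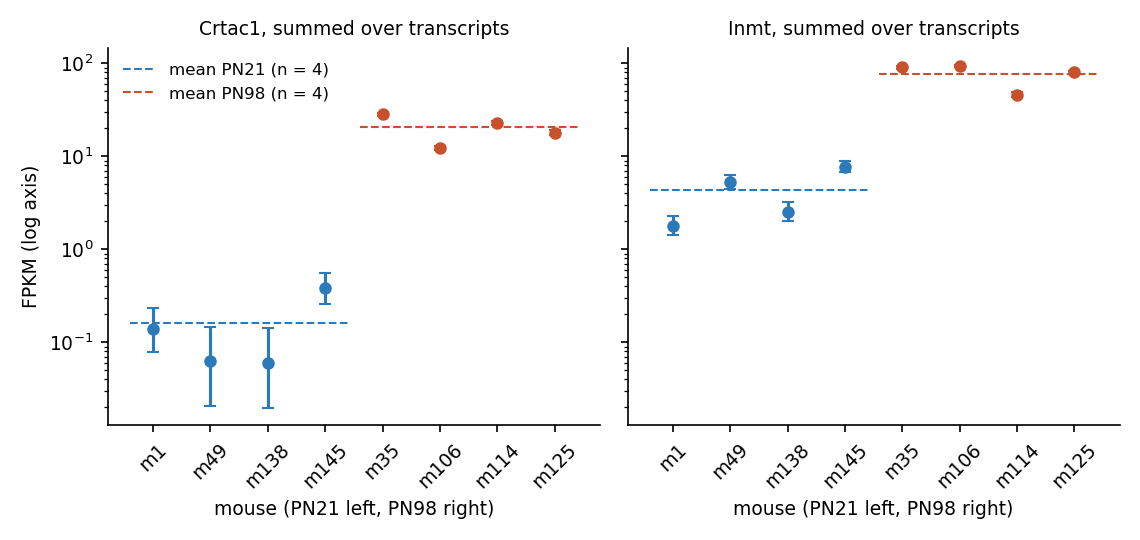
Summed FPKM of *Crtac1* and *Inmt* in each mouse on a log axis, with 95% Poisson intervals of the recovered fragment number as error bars and the mean of each age as a dashed line (n = 4). All PN98 points of a gene lie above all of its PN21 points, and the intervals are wide only for *Crtac1* at PN21, which rests on 5 to 27 fragments.

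In the fit over all genes, 375 of 16071 genes tested (2.33%) were higher at PN98 with an adjusted p under 0.05 (limma, Benjamini-Hochberg), and 466 (2.90%) were lower. This balance turned with the scaling, with 540 higher and 259 lower after scaling to nuclear genes and 765 higher and 453 lower by median of ratios. Both members were among the 375, as their choice implies. Among called genes *Crtac1* and *Inmt* came, by the size of the log2 difference, after the muscle calcium pump gene *Atp2a1* (4.20) and before the muscle sarcomere gene *Tcap* (3.35). Over all 16071 genes they were at rank 5 and 9, with the uncalled muscle genes *Ckm* (4.27) above both and *Myh4* (4.13) between them. In 972 of the 16071 genes (6.05%) all PN98 mice lay above all PN21 mice, both members included. The number of called genes rested on single mice: 93 to 677 were higher and 97 to 2835 lower with 1 mouse left out, the lowest counts without m106 and the highest without m35. *Crtac1* passed the filter on low values (mean of at least 1 FPKM over all 8 mice) through its PN98 values only.

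Placed among the 16071 genes of the same library, *Crtac1* stood at percentile 3.09 to 4.47 at PN21 and at percentile 59.1 to 74.2 at PN98. *Inmt* moved from percentile 12.8 to 44.2 at PN21 to percentile 83.8 to 92.4 at PN98. *Inmt* was above *Crtac1* in every mouse, by 12.9 to 84.7 times at PN21 and by 2.02 to 7.53 times at PN98. The members thus came closer to each other in level at PN98, and the ratios as listed did not overlap between the ages. At PN21 these ratios rest on about 5 to 27 sequenced fragments of *Crtac1* per mouse, so their counting error is large. Whether the ratios stay apart beyond counting error was not tested.

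The depth behind the values was recovered from the table. In genes with 1 transcript, low FPKM values are whole multiples of what 1 fragment is worth, which gave 28900000 to 44200000 fragments per library at PN21 and 25900000 to 56200000 at PN98. Between 64.7% and 69.1% of the low values came out within 0.1 of a whole number, so these depths are estimates. *Crtac1* at PN21 then rested on about 15 fragments in m1, 5 in m49, 5 in m138 and 27 in m145, and at PN98 on 1422 to 2660. *Inmt* rested on 70 to 196 fragments at PN21 and on 1032 to 4566 at PN98. Exact Poisson intervals (95%) cover counting error only.

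At PN21 the interval of *Crtac1* in m145 (0.255 to 0.562 FPKM) lay above those of m1 (0.0786 to 0.232), m49 (0.0204 to 0.147) and m138 (0.0196 to 0.141), while the latter intervals overlapped each other. m145 was thus the only PN21 mouse whose *Crtac1* level stood apart from the others beyond counting error. At PN98 the intervals of *Crtac1* did not overlap between any pair of mice (11.8 to 13.0 FPKM in m106, 17.1 to 19.0 in m125, 21.7 to 24.0 in m114 and 27.4 to 29.6 in m35). For *Inmt*, m35 (87.2 to 93.7) and m106 (90.8 to 96.2) overlapped, and m125 (77.1 to 83.7) and m114 (43.3 to 48.9) lay below them. In log2(FPKM + 1) the SD between mice was 0.18 at PN21 and 0.49 at PN98 for *Crtac1* and 0.75 and 0.47 for *Inmt*, against a median over all genes of 0.30 and 0.36.

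The order of the mice differed between the members. m145 was highest for both at PN21. At PN98 *Crtac1* was highest in m35 and lowest in m106, whereas *Inmt* was highest in m106 and lowest in m114, the mouse that was second for *Crtac1*. Sharing the difference between the ages, the members did not share the order of mice within PN98. Over 4 mice this order is a description only.

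The protein-coding transcript of *Inmt* (ENSMUST00000003569, 1077 bases) carried most of the gene's level. It had 1.798, 5.24, 2.12 and 7.57 FPKM in m1, m49, m138 and m145, and 84.9, 88.6, 45.8 and 76.4 FPKM in m35, m106, m114 and m125. The second transcript (ENSMUST00000152720, 919 bases, chr6:55172763-55175014) is annotated as a retained intron, a form that keeps unspliced sequence and encodes no protein. It had 2.02e-07, 0.0694, 0.425 and 0.179 FPKM at PN21 and 5.51, 4.84, 0.264 and 3.94 FPKM at PN98 in the same order of mice.

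In the same test on 23151 single transcripts, 307 (1.33%) were called and 164 (0.708%) were higher at PN98, all on log2(FPKM) without a pseudocount. All 3 transcripts of the members passed its filter (above 0 in 8 mice, mean above 2 FPKM at an age). The ages did not overlap for the coding transcript of *Inmt*, whose log2(FPKM) difference was 4.35 with a standard error of 0.51. They overlapped for the retained intron, since m114 at PN98 (0.264 FPKM) was below m138 at PN21 (0.425 FPKM). On the log2(FPKM) scale without pseudocount the retained intron differed by 8.65 with a standard error of 4.57, a value set by the entry of 2.02e-07 in m1. The retained intron held 6.09% of the summed *Inmt* level in m35, 5.18% in m106, 4.90% in m125 and 0.573% in m114. At PN21 it held 16.7% in m138, 2.31% in m145, 1.31% in m49 and nearly nothing in m1. How Cufflinks divides fragments between transcripts that share exons limits these shares and, since the transcripts differ in length, the sum as well. With the coding transcript alone the log2(FPKM + 1) difference was 3.97, the same as for the sum.

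**Figure D2:**
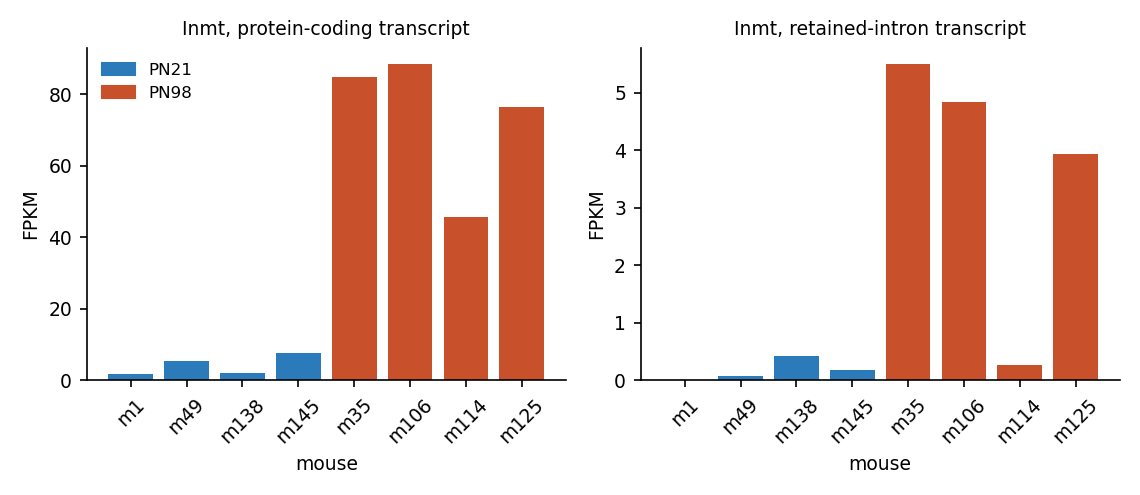
FPKM of the protein-coding and of the retained-intron transcript of *Inmt* in each mouse (bars, linear axes starting at 0, 1 bar per mouse, blue PN21, red PN98). The coding transcript reaches 45.8 to 88.6 FPKM at PN98, and the retained intron is above 3.9 FPKM in m35, m106 and m125 but at 0.264 FPKM in m114.

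Whole-depot libraries can differ in the cells that they hold, and fewer cells of a type and less RNA per cell cannot be told apart in them. Muscle content was measured as the mean log2(FPKM + 1) of 14 skeletal muscle markers and adipocyte content as *Adipoq*, the gene of the adipocyte hormone adiponectin. The muscle score was 1.04 in m1, 2.40 in m49, 4.36 in m138 and 2.31 in m145 at PN21. At PN98 it was 4.62 in m35, 6.33 in m106, 4.89 in m114 and 3.87 in m125. The score was on average 2.40 higher at PN98 but the ages overlapped, with m138 above m125 (two-sided exact permutation test over 70 splits, p = 0.0571, with 0.0286 as the smallest p possible). Without m138 the difference was 3.01 (p = 0.0286, exact permutation test), and without any other mouse it was 1.90 to 2.75 (p = 0.0571 without m125 and 0.0857 otherwise, exact permutation test). With median of ratios scaling it was 2.57 (p = 0.0286, exact permutation test).

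*Adipoq* had 1257, 1279, 817 and 947 FPKM in m1, m49, m138 and m145 and 2696, 2512, 3653 and 2769 FPKM in m35, m106, m114 and m125. It was higher at PN98 by 1.45 on the log2 scale (two-sided exact permutation test, p = 0.0286), and the ages did not overlap. The mean of 11 other adipocyte markers was 0.88 higher (p = 0.0286, exact permutation test). Both measures of adipocytes therefore rose between the ages, but not each marker did. Of 12 adipocyte markers tested, 11 were higher at PN98 and 1, *Pparg*, was lower. The 3 called higher were *Adipoq*, *Cidec* and *Lipe* (limma, 2.33% over all genes). *Plin1*, *Retn*, *Cfd*, *Pparg*, *Dgat2* and *Acsl1* overlapped between the ages. The ratio of mean FPKM was 2.70 for *Adipoq*, against 126 for *Crtac1* and 17.8 for *Inmt*. Divided by *Adipoq* of the same mouse, *Crtac1* differed by 2.71 and *Inmt* by 2.53 on the log2(FPKM + 1) scale.

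A pair of mice of different age had a like muscle content. The 14 muscle markers summed to 533 FPKM in m138 at PN21 and to 534 FPKM in m125 at PN98. *Crtac1* was at 0.0604 FPKM in m138 and 18.03 FPKM in m125, and *Inmt* at 2.55 and 80.3 FPKM. Among PN21 mice the muscle markers spanned 67.5 FPKM in m1 to 533 FPKM in m138, and *Crtac1* rested on 5 fragments in m138. *Ckm*, the muscle creatine kinase, ran from 0.347 FPKM in m1 to 50.4 FPKM in m138 at PN21 and *Atp2a1* varied 43.4-fold between the same mice, whereas *Crtac1* varied 6.37-fold and *Inmt* 4.31-fold with m145 highest. These are values of single mice, with 5 to 27 fragments behind *Crtac1* at PN21, and the part of muscle in the difference between the ages was not tested by them.

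The design allows a test that did not choose the members, namely whether a gene follows muscle or adipocyte content among mice of the same age. With age in the model, the slope of *Crtac1* on the muscle score was −0.13 with a standard error of 0.12 (limma, adjusted p = 0.999), in log2 units per log2 unit of muscle. The score ran from 1.04 to 4.36 at PN21, where *Crtac1* lay near the floor at 0.08 to 0.47 log2(FPKM + 1). Those mice could hardly show a slope of *Crtac1*. The slope of *Inmt* was 0.05 with a standard error of 0.20 (limma, adjusted p = 0.999). No gene of 16058 passed an adjusted p under 0.05 for this slope (0% called, 284 genes at an unadjusted p under 0.05). Leaving out m106 moved the slope of *Crtac1* to 0.00032, and leaving out m1 or m106 turned that of *Inmt* to −0.20 or −0.03.

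On *Adipoq* the slope of *Crtac1* was 0.25 with a standard error of 0.55 (limma, adjusted p = 0.990) and that of *Inmt* −0.83 with a standard error of 0.82 (limma, adjusted p = 0.990). No gene of 16070 passed (0% called, 483 at an unadjusted p under 0.05). This count and the 284 for the muscle score are below a share of 0.05 of the genes tested. That share would fall there if no gene had a slope. Both slopes changed sign when the other adipocyte markers replaced *Adipoq*, to −0.23 for *Crtac1* and 0.02 for *Inmt*, and that of *Crtac1* was −0.10 without m106. The slope of *Inmt* on *Adipoq* was −2.13 (standard error 0.76) without m138, −1.45 without m49, −0.49 without m145, −0.33 without m1 and −0.24 without m114. With standard errors of 0.12 to 0.82, these p-values do not show that the members and the content measures were unrelated.

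With the muscle score as covariate the difference between the ages was 4.47 (standard error 0.38) for *Crtac1* and 3.86 (standard error 0.64) for *Inmt*. With *Adipoq* as covariate it was 3.79 (standard error 0.83) and 5.17 (standard error 1.25). The covariates themselves differ between the ages, *Adipoq* without overlap. As the members were chosen on this difference, these values are a description and do not separate age from content.

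**Figure D3:**
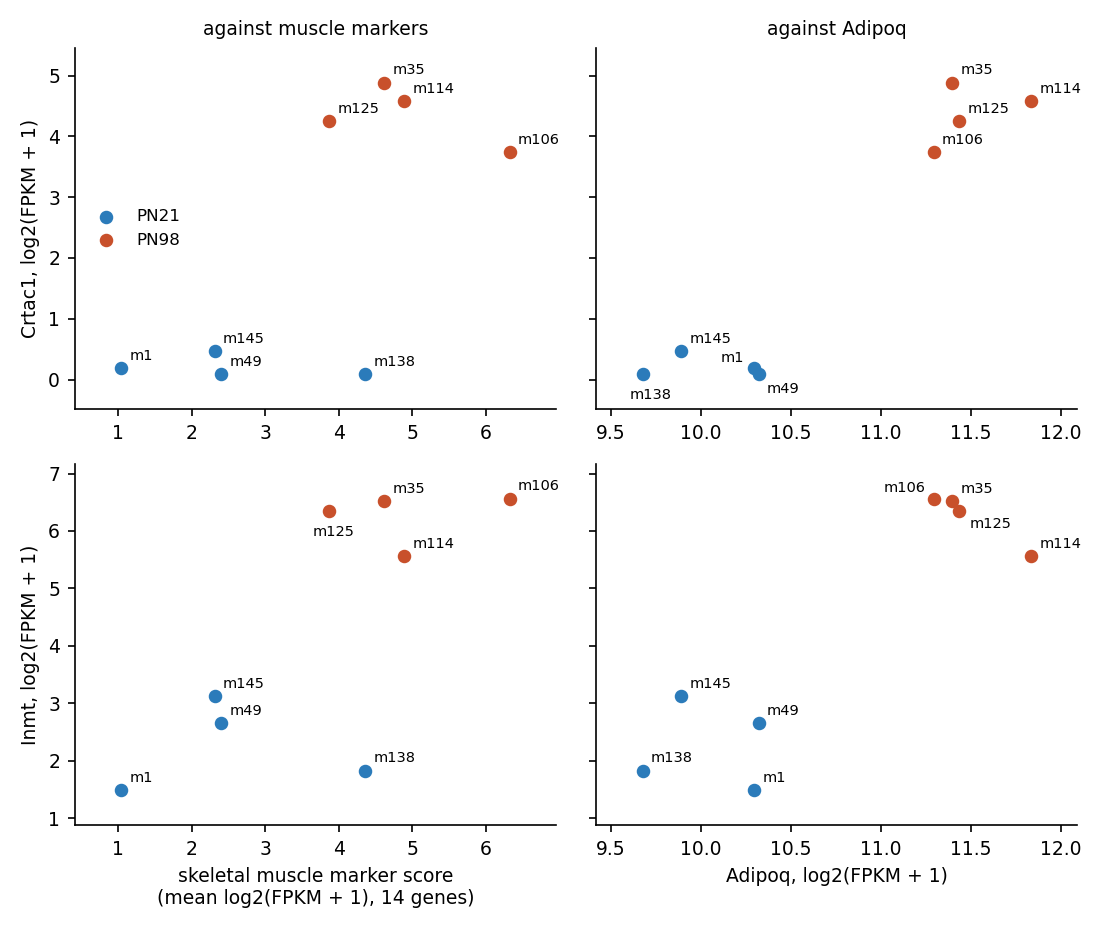
log2(FPKM + 1) of *Crtac1* (upper row) and *Inmt* (lower row) against the mean of 14 skeletal muscle markers (left) and against *Adipoq* (right), 1 point per mouse, blue PN21 and red PN98. m138 at PN21 has a muscle score of 4.36, above m125 at PN98 with 3.87, and lies with the PN21 mice in both members.

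Of the tissues for which the members are best known, lung and cartilage were looked at, and their markers were mostly at or near 0. Brain markers were not looked at. *Sftpc*, the surfactant gene of lung alveolar type 2 cells, was listed at 0 in all 8 mice, and *Sftpb* did not exceed 0.0241 FPKM. The 7 lung markers summed to 15.4 to 36.6 FPKM at PN21 and 1.56 to 33.2 FPKM at PN98, nearly all of it from *Napsa*, an aspartic protease gene with 14.4 to 35.7 FPKM at PN21 and 1.32 to 32.3 FPKM at PN98. Of 10 cartilage markers, *Matn3* was listed at 0 in all 8 mice and *Acan*, the main proteoglycan of cartilage, did not exceed 0.0734 FPKM. The 10 cartilage markers together summed to 1.75 to 2.43 FPKM at PN21 and 0.817 to 3.10 FPKM at PN98, below the 12.4 to 28.5 FPKM of *Crtac1* alone at PN98. The 4 mesothelial markers summed to 0.716 to 1.04 and 0.528 to 1.12 FPKM.

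The libraries were those of fat, with 12 adipocyte markers that summed to 16549 to 32437 FPKM at PN21 and 39727 to 61226 FPKM at PN98 without overlap. Most of this sum came from *Fabp4* (10641 to 20251 FPKM at PN21 and 27521 to 37466 FPKM at PN98). Markers of other cells moved with age or with single mice. The sum of 12 progenitor and fibroblast markers was 2067 to 4251 FPKM at PN21 and 637 to 1600 at PN98, and that of 6 Schwann cell markers 243 to 475 and 77.8 to 131. Among these, 3 of 12 and 3 of 5 genes tested were lower at PN98 with an adjusted p under 0.05 (limma, 2.90% over all genes), and 1 of the 12, *F3*, was higher (11.3 ± 1.12 FPKM at PN21 and 22.7 ± 4.13 FPKM at PN98, SD, n = 4 each). The progenitor list genes called lower were *Col1a1*, *Col3a1* and *Fbn1*. *Col1a1* and *Col3a1* made up most of that list's sum at PN21 (means of 777 and 1921 FPKM, against 99.5 and 341 FPKM at PN98). *Pdgfra*, *Dpp4*, *Pi16*, *Cd55*, *Ly6a*, *Dcn* and *Icam1* overlapped between the ages, and *Pi16*, *Cd55* and *Dcn* had higher mean FPKM at PN98. Mammary and skin epithelial markers summed to 2.33 to 44.3 FPKM at PN21 and to 0.290 to 1.36 at PN98. All 5 of their genes tested were lower at PN98, and 1, *Epcam*, was called (limma, 2.90% over all genes). The 6 lymphocyte markers summed to 319 to 781 FPKM at PN21 and, at PN98, to 726 in m35 but 13.3 to 141 in the other mice. m35 also had the highest *Crtac1* level, and without m35 the difference between the ages was 3.98 for *Crtac1*. The sums of endothelial, mural and macrophage markers overlapped between the ages (205 to 355 against 110 to 432, 139 to 262 against 72.6 to 378, and 387 to 653 against 169 to 790 FPKM). Of their genes tested, 0 of 6, 1 of 6 and 0 of 5 were called. The called mural gene was *Kcnj8*, lower at PN98 without overlap (17.2 ± 2.99 and 6.67 ± 2.23 FPKM, SD, n = 4 each, limma, adjusted p = 0.0227). The part of these cells in the levels of the members was not tested.

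The enzyme encoded by *Inmt* belongs to a group of small-molecule methyltransferases, of which 11 were listed here and 9 tested. The one called gene was *Hnmt*, which inactivates histamine by methylation. *Hnmt* had 10.5, 12.5, 8.47 and 10.1 FPKM at PN21 (m1, m49, m138, m145) and 23.5, 27.1, 26.5 and 29.0 FPKM at PN98 (m35, m106, m114, m125). Its difference was 1.28 with a standard error of 0.16 (limma, adjusted p = 0.00655), and the ages did not overlap. *Nnmt*, which methylates nicotinamide and is related to *Inmt* in sequence, overlapped between PN21 with 128 ± 54.4 FPKM (SD, n = 4) and PN98 with 97.9 ± 65.7 FPKM (n = 4) (difference −0.48, standard error 0.51, limma, adjusted p = 0.551). The median difference over the 9 genes was 0.11, against −0.21 over all genes tested.

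S-adenosylmethionine, the methyl donor of these enzymes, is made and recycled in the methionine cycle. Of 17 genes of this list 14 were tested and 1 was called, *Ahcyl2*, a relative of the hydrolase that removes the by-product of methylation. *Ahcyl2* had 47.5, 28.5, 39.3 and 24.7 FPKM at PN21 and 71.3, 105.6, 84.2 and 66.1 FPKM at PN98 in the order of mice above (difference 1.22, standard error 0.25, limma, adjusted p = 0.0325). *Mat2a*, the enzyme that makes S-adenosylmethionine outside the liver, had 57.6 ± 6.43 FPKM (SD, n = 4) and 56.9 ± 13.5 FPKM (n = 4) with overlap. The median difference of the list was −0.03.

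Tryptophan and tryptamine metabolism supplies and removes the substrate of the *Inmt* enzyme. Of 11 genes 8 were tested, with a positive difference for 4 and a negative one for 4. The 2 called genes, *Maoa* and *Aldh2*, both had positive differences (limma, 2.33% over all genes). *Maoa*, the monoamine oxidase that degrades amines such as serotonin, had 4.43, 4.17, 2.97 and 3.77 FPKM at PN21 and 7.28, 7.95, 9.17 and 5.86 FPKM at PN98 (difference 0.82, standard error 0.18, limma, adjusted p = 0.039). *Aldh2*, which oxidises the aldehydes so formed, had 236, 191, 160 and 190 FPKM at PN21 and 337, 392, 409 and 536 FPKM at PN98 (difference 1.10, standard error 0.19, limma, adjusted p = 0.0215). Neither gene overlapped between the ages. *Ddc*, the decarboxylase that forms tryptamine, was low in all mice, from 0.713 to 1.11 FPKM at PN21 and from 0.195 to 0.604 FPKM at PN98, and was not tested. The median difference of the list was 0.31.

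The Nogo receptor system, on which the protein of *Crtac1* acts, held 11 genes, of which 6 were tested and 0 were called (limma). *Rtn4*, which encodes the ligand Nogo, had 138.5, 213, 126 and 93.2 FPKM at PN21 and 204, 397, 285 and 353 FPKM at PN98 (difference 1.13, standard error 0.30, limma, adjusted p = 0.0682). *Rtn4r*, the Nogo receptor gene itself, stayed at or below 1.03 FPKM in all mice and was not tested. Also short of the threshold, with lower means at PN98, were the co-receptor *Ngfr* with 2.68 ± 0.860 FPKM at PN21 and 0.631 ± 0.667 FPKM at PN98 (limma, adjusted p = 0.0553, n = 4 each) and the myelin gene *Mag* with 1.60 ± 0.614 and 0.455 ± 0.242 FPKM (limma, adjusted p = 0.0707, n = 4 each).

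Among 17 EGF-repeat and cartilage-type matrix glycoproteins, 12 were tested. The difference was positive for 7 and negative for 5, and 1 gene was called in each direction (limma, 5.23% over all genes). *Prelp*, a leucine-rich matrix protein of cartilage and other connective tissue, had 53.2, 27.0, 44.1 and 47.8 FPKM at PN21 and 359, 160, 298 and 98.8 FPKM at PN98 (difference 2.26, standard error 0.42, limma, adjusted p = 0.0252). *Efemp2*, a fibulin needed for elastic fibres, had 58.5, 35.5, 46.5 and 62.2 FPKM at PN21 and 15.3, 16.8, 30.9 and 22.3 FPKM at PN98 (difference −1.23, standard error 0.27, limma, adjusted p = 0.0407). The median difference of the list was 0.02.

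Read against the 5.23% of all genes called in either direction, the lists held 1 of 9, 1 of 14, 2 of 8, 0 of 6 and 2 of 12 called genes, counts too small to set a list apart. The methyltransferase count was 1 with each mouse left out, and the other counts depended on single mice. The methionine cycle count was 0 without m49, m138, m145, m106 or m114, and the tryptamine count was 0 without the same mice and 1 without m1. The matrix count was 0 without m1, m49, m138, m145 or m106 and 1 without m114 or m125. Without m35 the counts were 2 for the methionine cycle, 4 for tryptamine metabolism, 3 for the Nogo system and 3 for the matrix list. When mice were scaled to nuclear genes or by median of ratios, the median over all genes moved from −0.21 to 0.01 and −0.02. The matrix count was then 1 under both scalings, and the Nogo count was 1 by median of ratios.

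**Figure D4:**
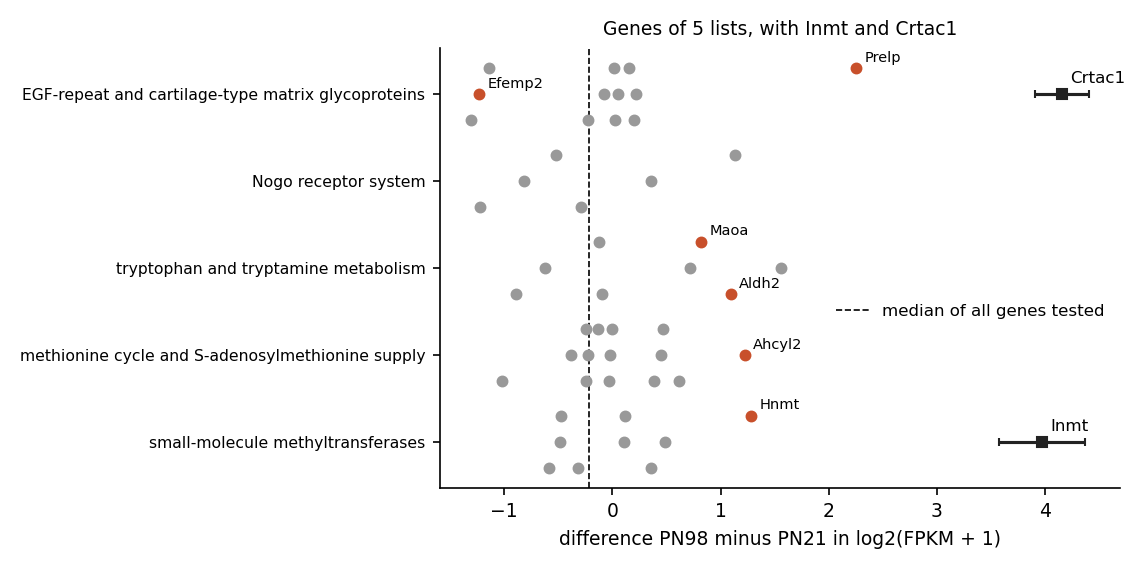
Difference of PN98 minus PN21 in log2(FPKM + 1) for the tested genes of 5 lists (points, red and named where the adjusted p from limma is under 0.05), with *Inmt* and *Crtac1* as black squares with their standard error and the median of all genes as a dashed line. Both members were chosen by the size of this difference and lie beyond every gene of the lists, the nearest being *Prelp* at 2.26.

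Genes beside the members on the chromosome were looked at next. Within 250 kb of *Crtac1*, 16 of 19 annotated genes were listed and 9 tested, of which 0 were called (limma, 5.23% over all genes). In 2 of the 9, all PN98 mice lay above all PN21 mice (6.05% over all genes). *Sfrp5*, a secreted Wnt antagonist, lies 81 kb away on the same strand and had 2.94, 1.66, 3.45 and 5.72 FPKM at PN21 and 148 in m35, 17.5 in m106, 105.6 in m114 and 6.999 in m125 at PN98. Its difference was 3.22 with a standard error of 0.90 (limma, adjusted p = 0.0806), and the PN98 mice spread from just above the PN21 range to far beyond it. *Golga7b*, 13 kb away on the other strand, had 0.386, 0.243, 0.122 and 0.289 FPKM at PN21 and 1.22, 2.23, 6.33 and 1.61 FPKM at PN98 (difference 1.45, standard error 0.35, limma, adjusted p = 0.0543). The other 7 tested genes overlapped between the ages, with differences between −0.59 for *Avpi1* and 0.37 for *Zfyve27*. An antisense gene annotated inside *Crtac1* was not analysed here, and the strand setting of the quantification is not given in the sources used here.

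Within 250 kb of *Inmt*, 9 of 12 annotated genes were listed, 4 were tested and 0 were called. The nearest listed gene, *Mindy4*, 28 kb away, had 0.752 FPKM on average at PN21 and 1.10 FPKM at PN98 and was not tested. *Aqp1*, a water channel gene 161 kb away with levels like those of *Inmt* at PN98, had 62.0 to 135 FPKM at PN21 and 59.4 to 179 FPKM at PN98 (difference 0.02, standard error 0.38). *Gars*, a tRNA synthetase gene 91 kb away, had 63.5 FPKM on average at PN21 and 43.8 FPKM at PN98 (difference −0.52, standard error 0.19, limma, adjusted p = 0.136).

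**Figure D5:**
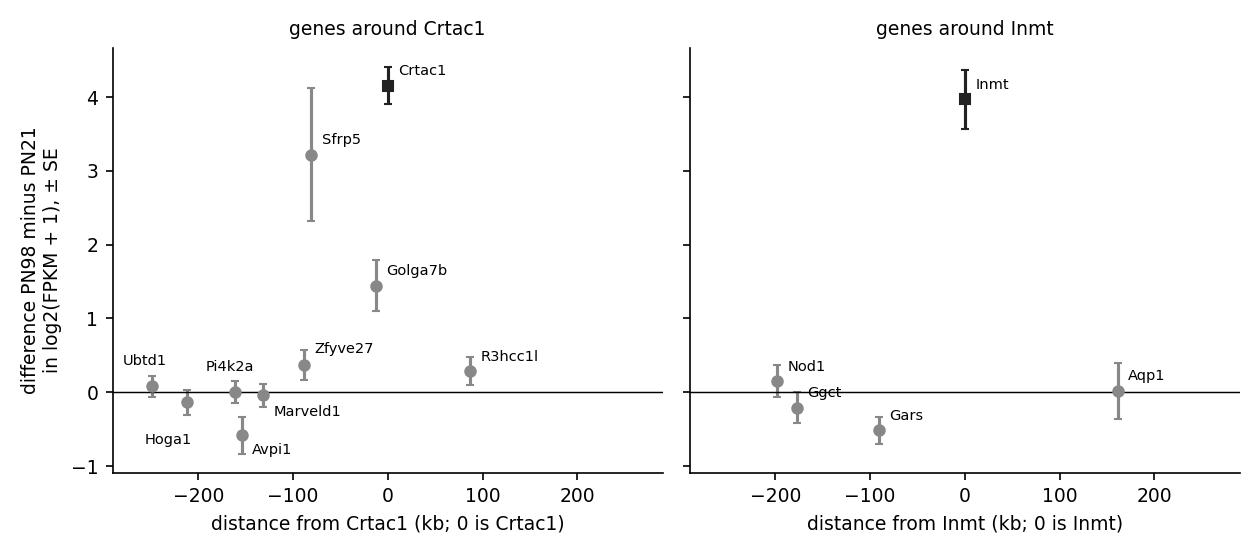
Difference of PN98 minus PN21 in log2(FPKM + 1), with standard errors, for tested genes within 250 kb of *Crtac1* (left) and *Inmt* (right) against their distance in kb, positive towards the end of the chromosome. Beside *Crtac1* at 4.16 stand *Sfrp5* at 3.22 and *Golga7b* at 1.45, and the 4 genes around *Inmt* lie between −0.52 and 0.15.

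Which genes ran most alike was measured as the root mean square difference between log2(FPKM + 1) profiles over 8 mice, each gene centred on its mean, among 16071 genes. For *Inmt* the nearest gene was *Crtac1* (0.629 log2 units), followed by *C7* (0.811), *Gm22482* (0.813), *Gsta3* (0.937) and *Pmepa1* (0.948). For *Crtac1* the nearest was *C7* (0.570), followed by *Inmt* (0.629), *Cystm1* (0.769), *Cela1* (0.835) and *Prr32* (0.848). *C7*, a complement component made by stromal cells, had 0.770, 0.181, 0.652 and 0.631 FPKM at PN21 and 22.9, 14.5, 16.6 and 7.45 FPKM at PN98. This measure is dominated by the difference between the ages, on which the members were chosen, and is a description only.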

How the data were processed

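The authors made directional poly(A)+ libraries, mapped paired-end reads to mm10 with STAR 2.3.0 and quantified Ensembl transcripts with Cufflinks 2.1.1. They deposited 1 FPKM value per transcript and mouse. Of 91969 transcripts, 40380 had lost a decimal mark. The marks were restored with the deposited standard deviation, average and score, which span 10 values, of which 2 are not listed. A single reading was found for 40337 transcripts, and 43 were left out. Of the restored transcripts, 5008 also stand with intact decimals in the second deposited table, and all 5008 were equal in 8 mice, those of *Crtac1* and the coding transcript of *Inmt* among them (the retained intron is not in that table). Fold change and p-value columns of that table were not used.

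FPKM values were summed per gene (GENCODE vM21), leaving out 40 genes with an open transcript. Genes with a mean of at least 1 FPKM were compared on log2(FPKM + 1) with limma 3.58.1 (R 4.3.3). The step was tested on simulated data, where 91% of genes changed by 3 log2 units and 75% of slopes of 1 on the muscle score were recovered. Each test had 200 changed genes, and noise was drawn independently for each gene. These shares may thus not hold for the real libraries, where no slope was called. Slopes on *Adipoq* were not simulated, so recovery is not known for them. *Acta1*, planned as the muscle measure, was not analysed here, and 14 other muscle markers were used. Members and lists were chosen with earlier results of these data known. Named genes are the members, the genes most like them, called list genes (up to 4 of a list without), sex-linked and defining markers, and genes within 250 kb. *Nnmt*, *Mat2a* and *Ddc* were added after their values were seen. Whether mice of an age were littermates is not given in the sources used here, so p-values measure the spread between these mice.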

Additional observations from a re-analysis of the deposited data

How the results depend on the processing

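No paired analysis was possible because the 2 ages are different mice and their numbers follow accession order. Both members stayed higher at PN98 under each alternative run. Leaving out 1 mouse in turn gave 3.98 to 4.36 for *Crtac1* and 3.71 to 4.25 for *Inmt* on the log2 scale. A pseudocount of 0.1 moved *Crtac1* to 6.39, the ratio to *Adipoq* gave 2.71 for *Crtac1* and 2.53 for *Inmt*, and *Adipoq* as covariate moved *Inmt* to 5.17. The muscle score as covariate was added after seeing the data.

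Genes called higher or lower at PN98 numbered 375 and 466. Scaling to nuclear genes gave 540 higher and 259 lower, median of ratios scaling 765 higher and 453 lower, arrayWeights 1143 higher and 3477 lower, and transcripts one by one 164 higher and 143 lower. With 1 mouse left out, 93 to 677 were higher and 97 to 2835 lower. Called list genes with 1 mouse left out ranged from 0 to 2 in the methionine cycle, 0 to 4 in tryptamine metabolism, 0 to 3 in the Nogo system and 0 to 3 in the matrix list, and the methyltransferase count was 1 throughout. The matrix count fell to 1 with a pseudocount of 0.1, with both scalings and without the filter. The Nogo count was 1 with median of ratios scaling, and the methionine cycle count 2 without the filter. With arrayWeights the methyltransferase, methionine cycle, Nogo and matrix counts were 3, 3, 3 and 4.

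The muscle score differed by 1.90 to 3.01 with 1 mouse left out and by 2.57 with median of ratios scaling, where the exact permutation p was 0.0286. *Adipoq* gave 1.32 to 1.54. The slopes ranged, with 1 mouse left out, from −0.20 to 0.00032 (*Crtac1* on muscle), −0.20 to 0.35 (*Inmt* on muscle), −0.10 to 0.44 (*Crtac1* on *Adipoq*) and −2.13 to −0.24 (*Inmt* on *Adipoq*). With the other adipocyte markers they were −0.23 for *Crtac1* and 0.017 for *Inmt*. Their adjusted p-values (limma) were 0.749 or more in each alternative. The cause of these shifts was not tested. Depth limits *Crtac1* at PN21, where 5 fragments carry the value in m49 and m138.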

Other observations

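After centring within each age and scaling each gene to unit spread, so that the difference between the ages no longer counts, the genes nearest to *Crtac1* were *Gtf3a*, *Utp23*, *Gm17136*, *Rpl31-ps15* and *Rrp36* (root mean square difference 0.190 to 0.250, where 0 is the same pattern over the 8 mice). Those nearest to *Inmt* were *Gm11457*, *Tcea1*, *Dcaf13*, *Nprl2* and *Ak6* (0.187 to 0.356). All 10 of these genes had a lower mean at PN98 than at PN21, for example *Gtf3a*, a ribosomal RNA transcription factor gene, with 29.6 and 20.4 FPKM and *Tcea1*, an elongation factor gene, with 19.7 and 17.4 FPKM. The median difference over all genes tested was also below 0 (−0.21, and 0.01 after scaling to nuclear genes). A lower mean at PN98 therefore does not set these genes apart. No gene was on both lists. By this measure *Inmt* was at rank 10650 for *Crtac1* (1.40). The PN21 part of the *Crtac1* pattern rests on about 5 to 27 fragments per mouse, so its counting error is large. With 4 mice per age and 16071 genes such near matches are a description of these libraries only.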
